A study of Mus musculus with 12 samples.

Results

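The 43 genes described here are interferon-stimulated effectors, the genes whose products carry out the antiviral and growth-restricting work of the interferon response. They were chosen by symbol from a list of named effectors, with no threshold on a measured value, and all 43 were found among the 54532 genes of the expression table. The series holds polyadenylated RNA of 12 libraries from mouse melanoma cells, which all carry the activated kinase BRAFV600E. NTC, a non-targeted control, and Gli2CA, labelled as carrying an active Gli2, were kept under puromycin (1 ug/mL) in DMEM that held 10% FBS. Cas9-NTC, a non-targeted control with Cas9, and Cas9-Gli2KO, labelled as a CRISPR knockout of Gli2, had blasticidin (10 ug/mL) in addition. Each of the 4 groups had 3 libraries. The labels name neither the form of the active Gli2 nor the edited exon, and do not say whether a line is 1 clone or whether the libraries of a group are separate cultures. Each p-value is therefore set against a spread between libraries that may be technical.

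Interferons are secreted when sensors in the cell meet foreign or misplaced nucleic acid. They bind their receptors, whose JAK kinases activate a complex of STAT proteins with IRF9, which binds the interferon-stimulated response element (ISRE) in the promoters of effector genes. The effectors recognise viral RNA, drain or alter nucleotides, attach the ubiquitin-like protein ISG15 to other proteins, and block viruses at membranes. In tumours they are known both as products of inflammation and as a trait of the tumour cells themselves.

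Levels are FPKM, read numbers scaled to the length of the gene and the total of the library, as the authors deposited them, so that levels of different genes can be set side by side. Whole reads recovered from the values summed to 16585280 to 25279889 per library. Gli2, the targeted gene, had no reads in NTC and stood at 0.00911, 0 and 0.0387 FPKM in Gli2CA libraries 1, 2 and 3. Of the known targets of Gli signalling, Gli1 was at 0.228, 0.177 and 0.162 FPKM in NTC and 1.27, 1.33 and 0.967 in Gli2CA, and Ptch1 rose 2.19-fold in Gli2CA (log2 change 0.90, limma adjusted p = 0.000293). Against its label, Cas9-Gli2KO held more Gli2 RNA than Cas9-NTC, at 0.820, 0.894 and 2.14 against 0.249, 0.350 and 0.235. Protein was not measured, so every direction given for this group is that of a label, and its libraries are called the labelled-knockout libraries. Library 3 of that group stood apart from the other 2, and leaving it out raised the genes called against Cas9-NTC from 762 to 7913 of 11860. The summed level of 8 melanocyte markers was 276 to 286 FPKM in NTC and 222 to 233 in Gli2CA, mostly from Sox10 and S100b, but 8.22 to 9.06 in Cas9-NTC and 6.35 to 7.80 in the labelled-knockout libraries. Mitf, of the same list, was the other way round, at 0.997, 1.15 and 0.954 in NTC and 2.67, 2.71 and 2.63 in Cas9-NTC. Sox10 was at or under 0.0580 in every library of the Cas9 groups, and Tyrp1 and Dct, enzymes of pigment synthesis, were listed at 0 in all 12 libraries. The summed level of 4 endothelial markers, mostly Cdh5, was at most 0.114 in NTC, 0.479 in Gli2CA and 3.06 in Cas9-NTC, and 6.19 to 19.3 in the labelled-knockout libraries. That of 5 keratinocyte markers was 1.26 to 3.57 over all libraries. The summed level of 8 leukocyte markers was at most 1.08 FPKM in NTC, 0.762 in Gli2CA, 0.374 in Cas9-NTC and 0.276 in the labelled-knockout libraries, and Cd3e, Siglech and Ncr1 were listed at 0 throughout.

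Most effectors were highest in the Cas9 control line, and many were lowest in the other control, with both manipulated lines in between. Of the 43 members, 40 had their highest group mean in Cas9-NTC, 2 in the labelled-knockout libraries and 1, Samd9l, in NTC. For 27 members the group means fell in the order Cas9-NTC, labelled knockout, Gli2CA and NTC, an order found in 7.46% of all tested genes. Among the others, Gbp2, Gbp7, Dtx3l and Samd9l had lower means in the labelled-knockout libraries than in NTC. In 41 members every Cas9-NTC library lay above all 6 libraries of NTC and Gli2CA, and in 32 members so did every labelled-knockout library. Among all 11860 tested genes, 21.4% had their highest mean in Cas9-NTC, in 29.1% every Cas9-NTC library and in 24.2% every labelled-knockout library lay above those 6. The 11 members of which the latter was not true were Adar, Samhd1, Helz2, Uba7, Trim25, Dtx3l, Parp14, Trim21, Gbp2, Gbp7 and Samd9l. The 9 members under the level tested below were Ddx60, Zbp1, Uba7, Herc6, Trim25, Parp14, Mx1, Mx2 and Ifitm1, with at most 0.339 FPKM in NTC, 0.363 in Gli2CA, 1.05 in Cas9-NTC and 0.462 in the labelled-knockout libraries. In these bulk libraries, more cells with the RNA and more RNA per cell cannot be told apart.

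**Figure D1:**
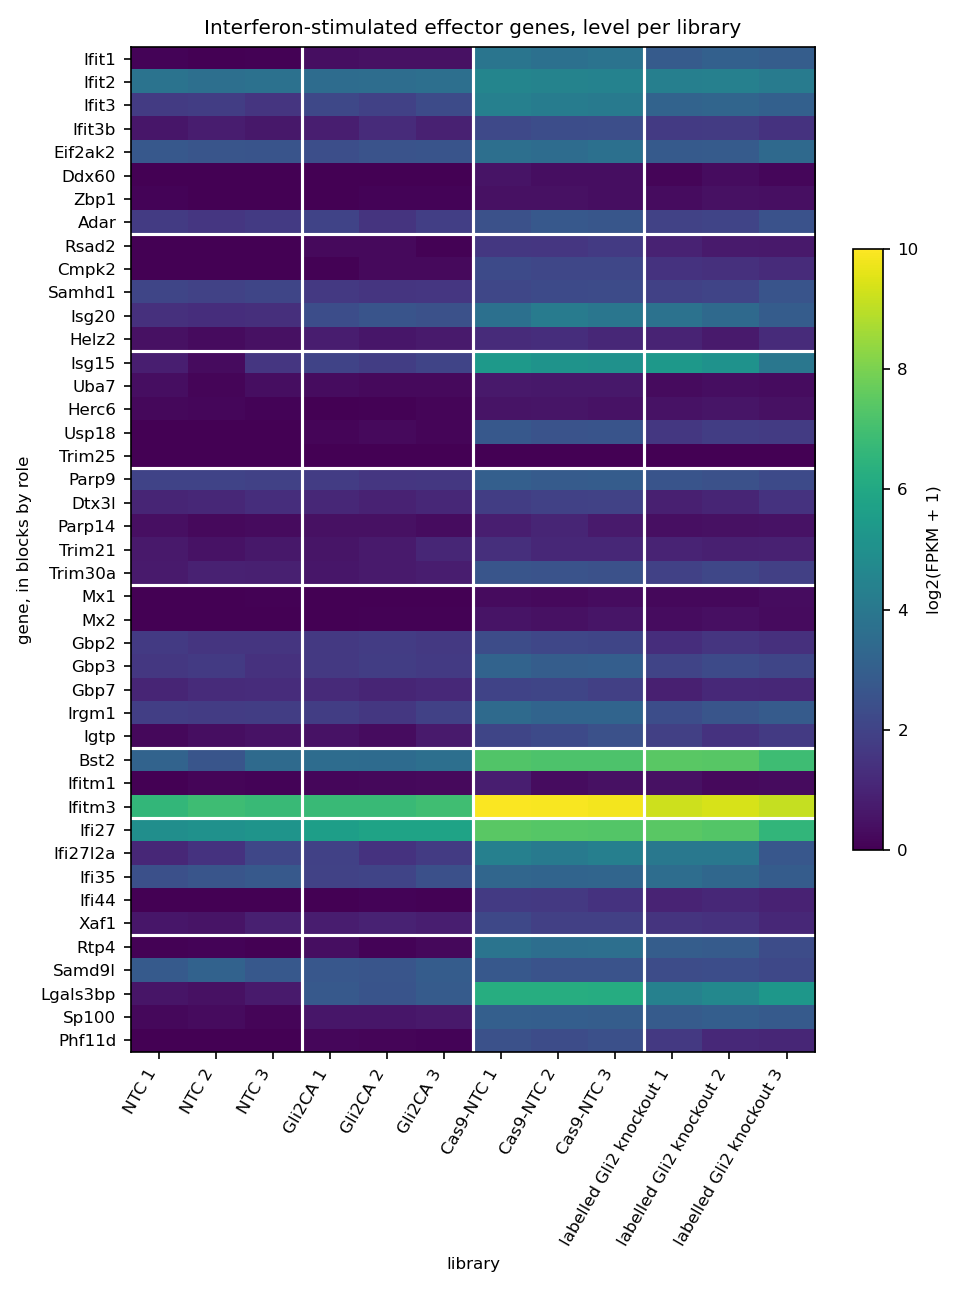
Level of each of the 43 effector genes (rows, in blocks by role) in each of the 12 libraries (columns), as log2(FPKM + 1) in colour. The 3 Cas9-NTC columns are the brightest for 40 of the 43 genes by group mean, and Ifitm3 is the brightest row.

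Against its own control, Gli2CA had effectors that rose and effectors that fell. Of the 34 members that reached 1 FPKM in 3 or more of the 12 libraries, 8 were called higher, 2 lower and 24 were not called, by limma on log2(FPKM + 1) with Benjamini-Hochberg adjustment over all 11860 genes that passed this filter. That is 10 of 34, beside 24.6% of all tested genes called in either direction, 14.1% higher and 10.5% lower. All 3 Gli2CA libraries lay above all 3 NTC libraries in 15 of the 34 and below them in 4, beside 23.3% and 20.4% of all tested genes. At an unadjusted p under 0.05, 13 members were higher and 3 lower, and voom on recovered reads called 11 higher and 2 lower. Of all genes, 4488 of 11860 had such a p in either direction, and voom called 1951 of 11856 higher and 1517 lower. The median log2 change was 0.15 over the 34 members and 0.00 over all tested genes. It depended on the added 1, and over the members was 0.46 with 0.1 added in its place, 0.04 with 5 added and 0.55 by voom. By the ratio of mean FPKM, Lgals3bp rose 11.5-fold, Ifit1 7.0-fold, Sp100 3.38-fold, Isg20 2.96-fold and Isg15 2.91-fold, and the other 3 that rose, Helz2, Ifi27 and Ifit3, less. The fold of Ifit1 rested on 8 reads over the NTC group and 50 over the Gli2CA group, so it is imprecise. Samhd1 and Parp9 fell. Without NTC library 1, 6 members were called, 5 higher and 1 lower, beside 1236 and 793 of all 11860 tested genes. Rescaling to a common FPKM total moved the median of all genes by -0.13 and left 28.2% of the called genes on the higher side, against 57.3% as deposited, and 6 members were then called higher and 5 lower.

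In the labelled-knockout libraries the effectors were lower than in their own control. Of the 34 tested members, 15 were called lower, 0 higher and 19 were not called, beside 6.42% of all tested genes called in either direction, 4.55% lower and 1.87% higher. At an unadjusted p under 0.05, 24 members were lower and 0 higher, and limma's voom on recovered reads called 16 lower and 0 higher. Of all genes, 3398 of 11860 had such a p in either direction, and voom called 539 of 11856 lower and 202 higher. All 3 labelled-knockout libraries lay below all 3 Cas9-NTC libraries in 25 of the 34 and above them in 0, beside 19.4% and 15.5% of all tested genes. The median log2 change was -0.61 over the members and -0.01 over all tested genes, and 32 of the 34 estimates were negative. With 5 added in place of 1 the members' median was -0.33. The number of members called depended on single libraries. It was 1, 0 and 3 without Cas9-NTC library 1, 2 and 3, where 20, 22 and 21 members were lower at an unadjusted p under 0.05 and 0 were higher. All genes called were then 166, 120 and 181 of 11860, and 2058, 1903 and 1958 at an unadjusted p under 0.05. The number of members called was 8, 2 and 25 without labelled-knockout library 1, 2 and 3, the last with 24 lower and Bst2 higher. All genes called were then 360, 188 and 7913 of 11860, the last with 4158 lower. The sign depended less on single libraries, with 30 to 33 negative estimates among the 34 members whichever library was left out.

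The Cas9 control line carried far more effector RNA than NTC. Of the 34 tested members, 32 were called higher, 0 lower and 2, Samhd1 and Samd9l, were not called. The background was high, with 63.2% of all tested genes called, 31.1% higher and 32.2% lower. All 3 Cas9-NTC libraries lay above all 3 NTC libraries in 33 of the 34 and below them in 0, beside 34.5% and 34.9% of all tested genes. Ifit1, Rsad2, Cmpk2, Usp18, Ifi44, Rtp4, Phf11d, Sp100, Igtp, Trim30a, Xaf1 and Helz2 stayed under 1 FPKM in every NTC and Gli2CA library. They were tested only because the Cas9 groups were high, which favours their calls here. With no filter, 39 of all 43 members were called higher and 0 lower, beside 4003 and 3856 of 26132 genes. At an unadjusted p under 0.05, 32 members were higher and 1 lower, and voom called 33 higher and 1 lower. Of all genes, 7958 of 11860 had such a p in either direction, and voom called 3851 of 11856 higher and 3931 lower. The median log2 change was 1.64 over the members and 0.02 over all tested genes. It was 2.53 over the members with 0.1 added in place of 1, 0.75 with 5 added and 2.71 by voom, and 1.60 to 1.71 under rescaling and quantile normalisation. The summed level of 5 fibroblast markers was 78.8 to 88.7 FPKM in NTC, 89.5 to 102 in Gli2CA and 227 to 239 in Cas9-NTC. That sum was mostly Col3a1, and the list did not move as a whole. Of its 3 tested genes, 2 were called higher in Cas9-NTC than in NTC and 1, Col1a1, lower. Mean levels of Col1a1 were 4.75 in NTC and 0.383 in Cas9-NTC, and those of Dcn, not tested, 0.232 and 0.0347. The part of these markers in the difference of the effectors was not tested. Cas9, blasticidin, the absence of Sox10 RNA and any other difference between the lines cannot be told apart as sources of this difference.

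**Figure D2:**
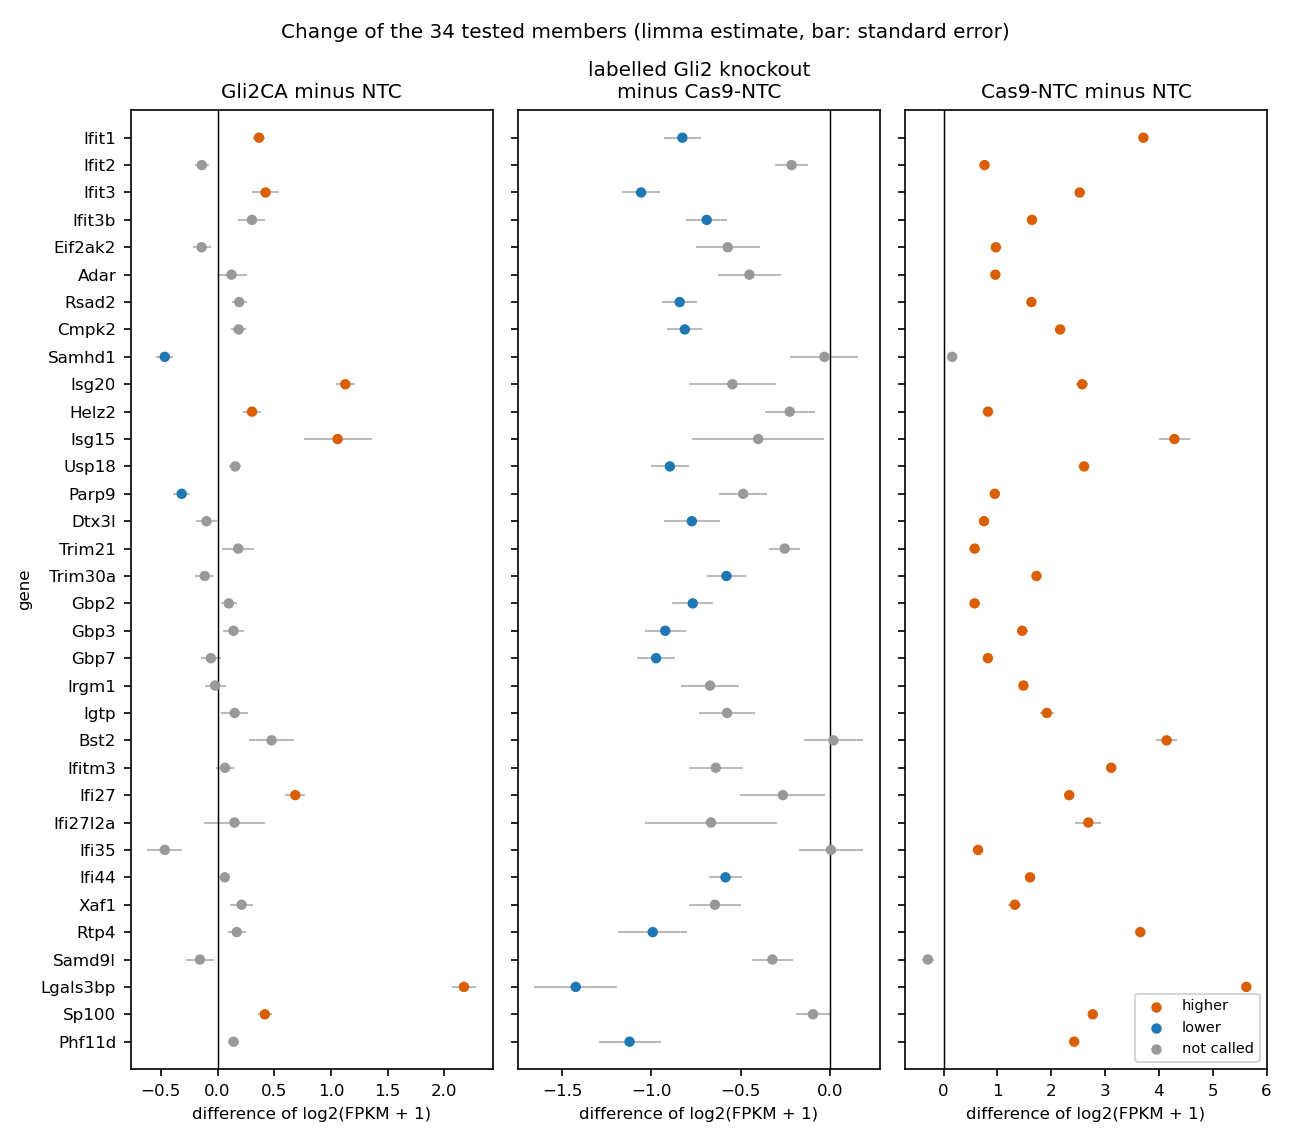
Estimated change of the 34 tested effectors on the log2(FPKM + 1) scale in 3 comparisons (one panel each, with its own horizontal scale), with bars for the standard error and colour for calls at a limma adjusted p under 0.05. In the middle panel 32 of 34 points lie left of 0, and in the right panel 33 of 34 lie right of it.

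The 2 manipulations were also compared with each other, as the change from NTC to Gli2CA less the change from Cas9-NTC to the labelled-knockout libraries. This needed 1 fit with a spread shared over all 12 libraries. Such a fit raised the genes called in the labelled-knockout comparison from 762 to 3182 and lowered those in Gli2CA from 2916 to 1685. An earlier analysis found too many false calls in the former, so calls of the difference may be too many. This difference was positive and called in 24 of the 34 members and negative and called in 0, beside 16.7% and 11.6% of all tested genes, 28.3% in either direction. At an unadjusted p under 0.05, 26 members were positive and 0 negative, and voom called 21 and 0. Of all genes, 4985 of 11860 had such a p in either direction, and voom called 1954 of 11856 positive and 1161 negative. The difference had a median of 0.77 over the members and 0.01 over all tested genes. Over the members it was 1.21 with 0.1 added in place of 1, 0.37 with 5 added and 1.36 by voom. On the log2(FPKM + 1) scale the difference was largest for Lgals3bp (log2 change 3.597, SE 0.26, limma adjusted p = 4.21e-06, with SE the standard error), Isg20 (log2 change 1.67, SE 0.26, limma adjusted p = 0.000885) and Ifit3 (log2 change 1.48, SE 0.16, limma adjusted p = 7.67e-05). With labelled-knockout library 3 left out, 26 were positive and 1 negative, beside 3995 and 3540 of all 11860 tested genes. The members called higher in Gli2CA and lower in the labelled-knockout libraries were 3, namely Ifit1, Ifit3 and Lgals3bp. That is 3 of the 8 that rose, beside 15 of all 34 tested members that fell. The share of all tested genes called in both ways was not counted, and whether these calls go together was not tested.

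The promoters of the members were searched for the core of the ISRE, the letters GAAA, any 2 bases and GAAA again, on either strand with overlaps counted. The windows ran from 250 bases before to 50 bases after each RefSeq start (GRCm38.p6). Of the 34 members with a window in the RefSeq table, 16 held a match (47.1%), against 3.99% of all 27025 genes there. The members were listed as interferon-stimulated genes, so a higher share can follow from the list itself and says nothing of these lines. Among matched members, 8 of 13 called lower in the labelled-knockout libraries held a match, as did 7 of 16 not called. For Gli2CA it was 3 of 7 called higher and 12 of 21 not called. A match is only these letters in the window, and binding was not measured. Members with a window but no match included Lgals3bp, whose changes were the largest here, and Isg20, Sp100, Helz2, Cmpk2, Phf11d and Ifi44. The last 120 bases before the start are printed for 5 members picked from those with a match. They run 5′ to 3′ on the strand of the gene, with the matches in capitals.
Isg15, chr4:156200819-156200938, minus strand: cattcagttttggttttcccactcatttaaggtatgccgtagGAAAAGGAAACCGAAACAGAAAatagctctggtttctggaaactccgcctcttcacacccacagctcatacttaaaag
Ifit1, chr19:34640769-34640888, plus strand: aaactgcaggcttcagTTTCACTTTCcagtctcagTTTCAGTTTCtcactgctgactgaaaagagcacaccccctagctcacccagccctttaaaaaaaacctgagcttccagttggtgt
Gbp3, chr3:142559924-142560043, plus strand: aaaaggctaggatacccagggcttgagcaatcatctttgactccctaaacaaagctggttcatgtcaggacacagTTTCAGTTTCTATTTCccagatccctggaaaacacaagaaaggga
Gbp7, chr3:142530216-142530335, plus strand: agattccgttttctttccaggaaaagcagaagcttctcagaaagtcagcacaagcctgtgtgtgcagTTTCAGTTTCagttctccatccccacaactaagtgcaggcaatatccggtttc
Rsad2, chr12:26456453-26456572, minus strand: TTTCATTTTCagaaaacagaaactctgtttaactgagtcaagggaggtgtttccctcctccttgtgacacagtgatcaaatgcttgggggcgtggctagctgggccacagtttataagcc
The first match began at base -78 from the start in Isg15, -104 in Ifit1, -45 in Gbp3, -53 in Gbp7 and -120 in Rsad2. Isg15 held 3 overlapping matches, Ifit1 and Gbp3 2 each, and Gbp7 and Rsad2 1 each.

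**Figure D3:**
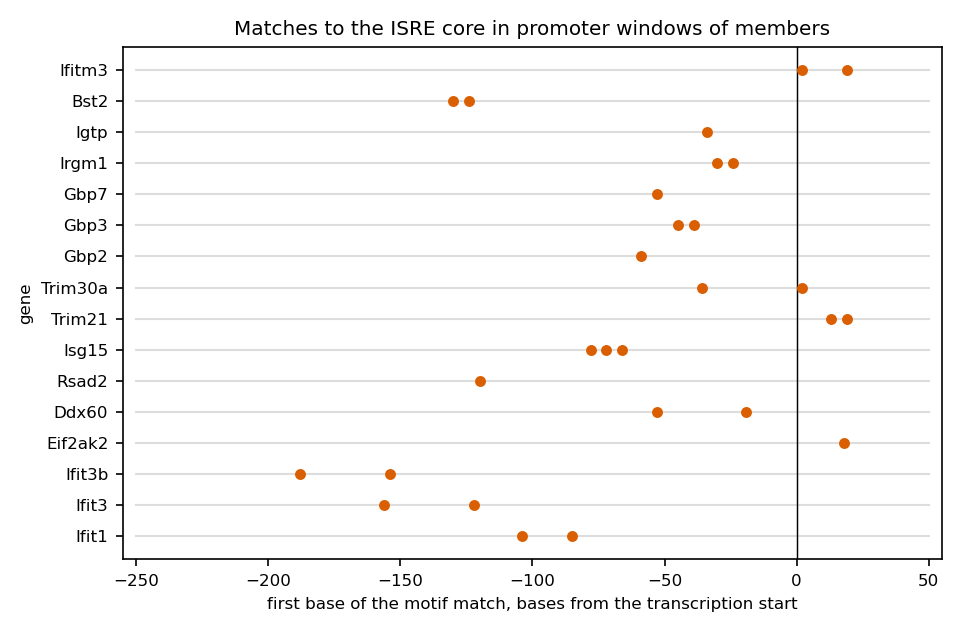
Position of each match to the ISRE core (points) in bases from the transcription start (horizontal axis, 0 marks the start) in the promoter windows of the 16 members that hold one (rows). Most matches lie within 200 bases before the start, while those of Ifitm3, Trim21 and Eif2ak2 and 1 of Trim30a lie after it.

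Among the genes that recognise RNA and block translation, 6 of 8 members were tested. Of these, 2 rose in Gli2CA and 0 fell, 3 fell in the labelled-knockout libraries and 0 rose, and 6 were higher in Cas9-NTC than in NTC. Counts by role, here and below, stand beside the shares of all tested genes. These were 14.1% higher and 10.5% lower in Gli2CA, and 1.87% higher and 4.55% lower in the labelled-knockout libraries. Between the control lines they were 31.1% higher and 32.2% lower. The role groups are small, and none was tested as a set. Ifit1 (ENSMUSG00000034459, chromosome 19, 34640871 to 34650009, plus strand, in GENCODE M21 on GRCm38, as for all genes here) encodes a protein that binds viral RNA ends and blocks their translation. It was at 0.0824, 0.0222 and 0.0469 FPKM in NTC libraries 1, 2 and 3, which is 8 reads over the group. In Gli2CA it was at 0.306, 0.375 and 0.380, or 50 reads, and rose 7.0-fold (log2 change 0.37, SE 0.053, limma adjusted p = 0.00424). Quantile normalisation ended that call (limma adjusted p = 0.117, the highest of its alternatives, which went down to 0.00112). Cas9-NTC held far more Ifit1 RNA, at 13.7, 11.8 and 12.9, and the labelled-knockout libraries had 6.27, 7.38 and 6.66. These did not overlap, and Ifit1 was 1.89-fold lower in the latter (log2 change -0.83, SE 0.11, limma adjusted p = 0.0121).

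Ifit3 and Ifit3b lie next to each other and are near-identical copies, so reads can be shared between them. Ifit3 (ENSMUSG00000074896, chromosome 19, 34583531 to 34588731, plus strand), a partner of Ifit1 in the human protein complex, was at 2.33, 2.53 and 1.93 FPKM in NTC and 3.48, 2.79 and 3.90 in Gli2CA (log2 change 0.42, SE 0.12, limma adjusted p = 0.0477). The groups did not overlap, but the call ended in 10 of 16 alternative settings (limma adjusted p 0.00851 to 0.153 over them). Ifit3 was at 19.4, 17.6 and 16.5 in Cas9-NTC and fell 2.22-fold to 8.05, 8.72 and 7.34 in the labelled-knockout libraries (log2 change -1.06, SE 0.11, limma adjusted p = 0.00606). That is the lowest adjusted p among the members in this comparison. Ifit3b had 0.504, 0.765 and 0.560 FPKM in NTC, 0.783, 1.33 and 0.876 in Gli2CA, 3.63, 4.10 and 4.33 in Cas9-NTC and 2.21, 2.37 and 1.77 in the labelled-knockout libraries. Its lower level in the last group was called (log2 change -0.69, limma adjusted p = 0.0283), and its higher level in Gli2CA was not (log2 change 0.30, limma adjusted p = 0.116). Ifit2, which also binds RNA, was the least moved of the family, at 12.2 ± 0.772 in NTC, 11.02 ± 0.397 in Gli2CA, 21.4 ± 1.12 in Cas9-NTC and 18.3 ± 1.27 in the labelled-knockout libraries (mean ± SD, n = 3 libraries, limma adjusted p = 0.166 and 0.182 for the 2 manipulations).

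Eif2ak2, the RNA-activated kinase PKR, and Adar, which edits adenosines in double-stranded RNA, were not called in either manipulation. Eif2ak2 was 2.14-fold higher in Cas9-NTC than in NTC (log2 change 0.97, limma adjusted p = 1.36e-05) and had 11.5, 10.7 and 11.98 FPKM there and 6.18, 6.37 and 9.80 in the labelled-knockout libraries. Adar was 2.39-fold higher (log2 change 0.96, limma adjusted p = 5.44e-05), with 4.61, 5.77 and 5.31 and 2.94, 3.14 and 4.73. For both genes library 3 was the highest of the labelled-knockout libraries. Part of the Adar exons, 16.8%, overlaps the neighbouring gene Chrnb2. The helicase gene Ddx60 and Zbp1, whose protein senses left-handed nucleic acid, were below the tested level. Ddx60 was listed at 0 in the 3 NTC libraries and at 0.428, 0.291 and 0.293 in Cas9-NTC, at least 54.5-fold higher against a limit of 3 reads over the NTC group, and at 0.105, 0.242 and 0.127 in the labelled-knockout libraries. Zbp1 was at 0.351, 0.369 and 0.294 in Cas9-NTC and 0.258, 0.360 and 0.326 in the latter, which overlap.

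Of the enzymes that act on nucleotides and nucleic acids, different genes were called in the 2 manipulations. Of 5 tested members, 2 rose and 1 fell in Gli2CA, and 2 fell and 0 rose in the labelled-knockout libraries. The directions split less than the calls. All but Samhd1 had a positive estimate in Gli2CA, and every estimate was negative in the labelled-knockout libraries. Whether the genes differed from each other was not tested. Isg20 (ENSMUSG00000039236, chromosome 7, 78913424 to 78920396, plus strand), an RNA exonuclease, was at 1.62, 1.46 and 1.57 FPKM in NTC and at 4.11, 5.05 and 4.60 in Gli2CA. All Gli2CA libraries lay above all NTC libraries, and Isg20 rose 2.96-fold (log2 change 1.13, SE 0.083, limma adjusted p = 0.000335). In Cas9-NTC it was at 11.96, 16.8 and 14.3 and in the labelled-knockout libraries at 12.7, 9.81 and 6.59, which overlap (log2 change -0.55, limma adjusted p = 0.194). Samhd1, which hydrolyses the building blocks of DNA, fell in Gli2CA from 3.27, 2.95 and 3.29 to 2.20, 1.88 and 1.98 (log2 change -0.47, SE 0.074, limma adjusted p = 0.00602). That call ended with all 4 groups in 1 fit (limma adjusted p = 0.0558, range from 0.000449). Samhd1 was one of the 2 tested members not called between the control lines, at 3.66 ± 0.203 in Cas9-NTC against 3.17 ± 0.189 in NTC (mean ± SD, n = 3). Helz2, a helicase, rose in Gli2CA from 0.376, 0.214 and 0.378 to 0.744, 0.523 and 0.631 (log2 change 0.30, limma adjusted p = 0.0385), a call that ended in 9 of 16 alternative settings (limma adjusted p 0.00883 to 0.367 over them).

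Rsad2 and Cmpk2 are neighbours on chromosome 12 and act together in making an antiviral nucleotide. Rsad2 (ENSMUSG00000020641, chromosome 12, 26442746 to 26456452, minus strand), which encodes viperin, was listed at 0 in all NTC libraries and at 0.202, 0.179 and 0.0490 FPKM in Gli2CA. It was at 2.04, 2.02 and 2.24 in Cas9-NTC, at least 169.6-fold above NTC by the limit of 3 reads over the group. In the labelled-knockout libraries it was at 0.960, 0.657 and 0.589, 2.85-fold lower and without overlap (log2 change -0.84, SE 0.097, limma adjusted p = 0.00888). Rsad2 reached 1 FPKM only in the 3 Cas9-NTC libraries, so it was tested only because it was high there, which favours its calls. With no filter the limma adjusted p of this lower level was 0.0429. Cmpk2, a nucleotide kinase, had 0, 0.0141 and 0 FPKM in NTC, which is 1 read over the group, and 0.0451, 0.186 and 0.204 in Gli2CA. It went from 3.78, 3.34 and 3.40 in Cas9-NTC to 1.74, 1.63 and 1.34 in the labelled-knockout libraries, 2.24-fold lower (log2 change -0.81, SE 0.099, limma adjusted p = 0.0104). Both genes were thus low in the first experiment and moved in parallel in the second. Neither was called in Gli2CA (log2 change 0.19, limma adjusted p = 0.0796 for Rsad2, log2 change 0.19, limma adjusted p = 0.0941 for Cmpk2), although no library overlapped between the groups.

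In the ISG15 pathway 2 of 5 members were tested. In Gli2CA 1 rose, in the labelled-knockout libraries 1 fell, and both were higher in Cas9-NTC than in NTC. Isg15 (ENSMUSG00000035692, chromosome 4, 156199424 to 156200818, minus strand), the ubiquitin-like modifier, was at 0.811, 0.234 and 1.98 FPKM in NTC and 3.06, 2.56 and 3.16 in Gli2CA, 2.91-fold higher (log2 change 1.06, SE 0.30, limma adjusted p = 0.0465). The call ended in 9 of 16 alternative settings (limma adjusted p 0.00724 to 0.186 over them). Isg15 reached 40.3, 34.6 and 32.7 in Cas9-NTC and 39.3, 33.5 and 14.4 in the labelled-knockout libraries. Libraries 1 and 2 of the latter lay within the range of the controls and library 3 below it (log2 change -0.40, limma adjusted p = 0.448), and without library 3 the log2 change was 0.02. Usp18 (ENSMUSG00000030107, chromosome 6, 121245906 to 121270917, plus strand), which removes ISG15 and damps signalling at the interferon receptor, had 0.0157, 0 and 0.0223 FPKM in NTC, 2 reads over the group, and 0.112, 0.178 and 0.0952 in Gli2CA. It was at 5.73, 4.82 and 5.03 in Cas9-NTC and fell 2.23-fold to 2.11, 2.55 and 2.32 in the labelled-knockout libraries, which lay close together (log2 change -0.90, SE 0.11, limma adjusted p = 0.0098). The other 3 members of the pathway were below the tested level. The activating enzyme gene Uba7 was at 0.600, 0.566 and 0.558 in Cas9-NTC and 0.227, 0.288 and 0.248 in the labelled-knockout libraries, and the ligase gene Herc6 at 0.425, 0.488 and 0.418 and 0.415, 0.462 and 0.348. Trim25, a ligase of RNA sensing, did not exceed 0.0205 FPKM in any library.

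Of the genes for ADP-ribosylation and TRIM ubiquitin ligases, 4 of 5 were tested. In Gli2CA 1 fell and 0 rose, in the labelled-knockout libraries 2 fell and 0 rose, and all 4 were higher in Cas9-NTC than in NTC. Trim30a (ENSMUSG00000030921, chromosome 7, 104409025 to 104465193, minus strand), a mouse TRIM protein, was at 0.629, 0.888 and 0.833 FPKM in NTC and 0.533, 0.672 and 0.736 in Gli2CA, which overlap. It was at 5.20, 4.87 and 4.61 in Cas9-NTC, 6.25-fold above NTC (log2 change 1.73, SE 0.084, limma adjusted p = 1.79e-06), and fell to 2.77, 3.38 and 2.69 in the labelled-knockout libraries (log2 change -0.58, SE 0.11, limma adjusted p = 0.0387). The latter call of Trim30a ended in 8 of 16 alternative settings (limma adjusted p 5.34e-05 to 0.184 over them). Parp9 and Dtx3l form a complex of a poly-ADP-ribose polymerase family member and a ubiquitin ligase, are divergent neighbours, and share 9.40% and 8% of their exon bases with each other. Parp9 fell in Gli2CA from 2.99, 3.01 and 2.82 to 2.43, 1.997 and 2.08 (log2 change -0.32, SE 0.076, limma adjusted p = 0.0274), a call that ended in 8 of 16 alternative settings (limma adjusted p 0.00491 to 0.101 over them). Parp9 was at 7.21, 6.26 and 6.43 in Cas9-NTC and 5.12, 4.60 and 3.69 in the labelled-knockout libraries, without overlap but not called (log2 change -0.49, limma adjusted p = 0.0918). Dtx3l had 1.03, 1.18 and 1.47 FPKM in NTC and 1.14, 0.917 and 1.18 in Gli2CA. It went from 2.505, 2.78 and 2.94 in Cas9-NTC to 0.863, 1.06 and 1.72 in the labelled-knockout libraries (log2 change -0.77, SE 0.16, limma adjusted p = 0.0452), so that libraries 1 and 2 reached the level of NTC and library 3 did not. The Dtx3l call ended in 10 of 16 alternative settings (limma adjusted p 5.16e-06 to 0.184 over them). Trim21, a receptor for antibodies inside cells, was 2.43-fold higher in Cas9-NTC than in NTC (log2 change 0.58, limma adjusted p = 0.00187) and was not called in either manipulation. Parp14, below the tested level, was at 0.780, 1.05 and 0.653 in Cas9-NTC and 0.340, 0.358 and 0.421 in the labelled-knockout libraries.

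Of the 5 tested GTPase genes, 0 were called in Gli2CA by limma, with 0 at an unadjusted p under 0.05 and 0 called by voom, while 3 of 5 fell in the labelled-knockout libraries and 5 of 5 were higher in Cas9-NTC than in NTC. The guanylate-binding proteins attack the membranes around intracellular pathogens, and their genes are paralogs between which the counting could split reads. Gbp3 (ENSMUSG00000028268, chromosome 3, 142560026 to 142573209, plus strand) was at 2.08, 2.27 and 1.66 FPKM in NTC and 2.19, 2.49 and 2.23 in Gli2CA. It was at 8.12, 6.63 and 7.04 in Cas9-NTC and fell 2.17-fold to 3.13, 3.69 and 3.23 (log2 change -0.92, SE 0.12, limma adjusted p = 0.0114). Its neighbours on chromosome 3 fell to the level of the other control line or below it. Gbp7 went from 3.06, 3.29 and 2.72 to 0.826, 1.19 and 1.14, where NTC had 1.07, 1.37 and 1.39 (log2 change -0.97, SE 0.11, limma adjusted p = 0.00795). Gbp2 went from 4.06, 3.35 and 3.21 to 1.48, 1.92 and 1.59, where NTC had 2.25, 1.94 and 1.93 (log2 change -0.77, SE 0.11, limma adjusted p = 0.02). Part of the Gbp7 exons, 11.3%, overlaps another annotated gene.

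Igtp and Irgm1 are immunity-related GTPases of the same kind of defence, and Igtp shares 8.01% of its exon bases with Irgm2. Igtp (ENSMUSG00000078853, chromosome 11, 58199556 to 58207591, plus strand) was at 0.152, 0.291 and 0.400 FPKM in NTC and 0.403, 0.246 and 0.630 in Gli2CA. It was at 3.24, 3.74 and 4.59 in Cas9-NTC, 13.7-fold above NTC (log2 change 1.92, SE 0.12, limma adjusted p = 8.22e-06), and at 2.72, 1.78 and 2.27 in the labelled-knockout libraries (log2 change -0.58, limma adjusted p = 0.0926). Irgm1 had 2.62, 2.46 and 2.51 FPKM in NTC, 2.56, 2.08 and 2.82 in Gli2CA, 9.98, 8.40 and 8.32 in Cas9-NTC and 4.14, 5.26 and 6.39 in the labelled-knockout libraries (log2 change -0.67, limma adjusted p = 0.0694). For both, the Cas9 groups did not overlap but the lower level was not called. Mx1 and Mx2, dynamin-like GTPases, were below the tested level and did not exceed 0.275 and 0.469 FPKM in any library. Mx2 was listed at 0 in the 3 NTC libraries and was at 0.441, 0.371 and 0.469 in Cas9-NTC and 0.264, 0.328 and 0.235 in the labelled-knockout libraries.

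Of the 3 membrane restriction factors, 2 were tested, and both were higher in Cas9-NTC than in NTC. Ifitm3, the member of highest level in every group (ENSMUSG00000025492, chromosome 7, 141009586 to 141010770, minus strand), which hinders the fusion of viruses with endosomes, was at 98.6, 117 and 109 FPKM in NTC and 108, 109.9 and 122 in Gli2CA, which overlap. It was at 983, 945 and 902 in Cas9-NTC, 8.71-fold above NTC (log2 change 3.11, SE 0.073, limma adjusted p = 4.34e-08), and at 602, 669 and 549 in the labelled-knockout libraries, all below the controls but not called (log2 change -0.64, SE 0.15, limma adjusted p = 0.0665). Bst2 (ENSMUSG00000046718, chromosome 8, 71534255 to 71537456, minus strand), tetherin, which holds budding virus at the cell surface, was at 8.15, 5.15 and 9.86 in NTC and 10.7, 10.3 and 11.4 in Gli2CA (log2 change 0.48, SE 0.20, limma adjusted p = 0.136). It was at 156, 145 and 146 in Cas9-NTC, 19.3-fold above NTC (log2 change 4.14, SE 0.19, limma adjusted p = 1.25e-06). The labelled-knockout libraries had 173, 167 and 118, with libraries 1 and 2 above and library 3 below all Cas9-NTC libraries (log2 change 0.02, limma adjusted p = 0.948). Bst2 thus did not show the lower level of most members in this group. Ifitm1 was below the tested level, with 0.809, 0.252 and 0.352 in Cas9-NTC and 0.357, 0.200 and 0.233 in the labelled-knockout libraries.

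**Figure D4:**
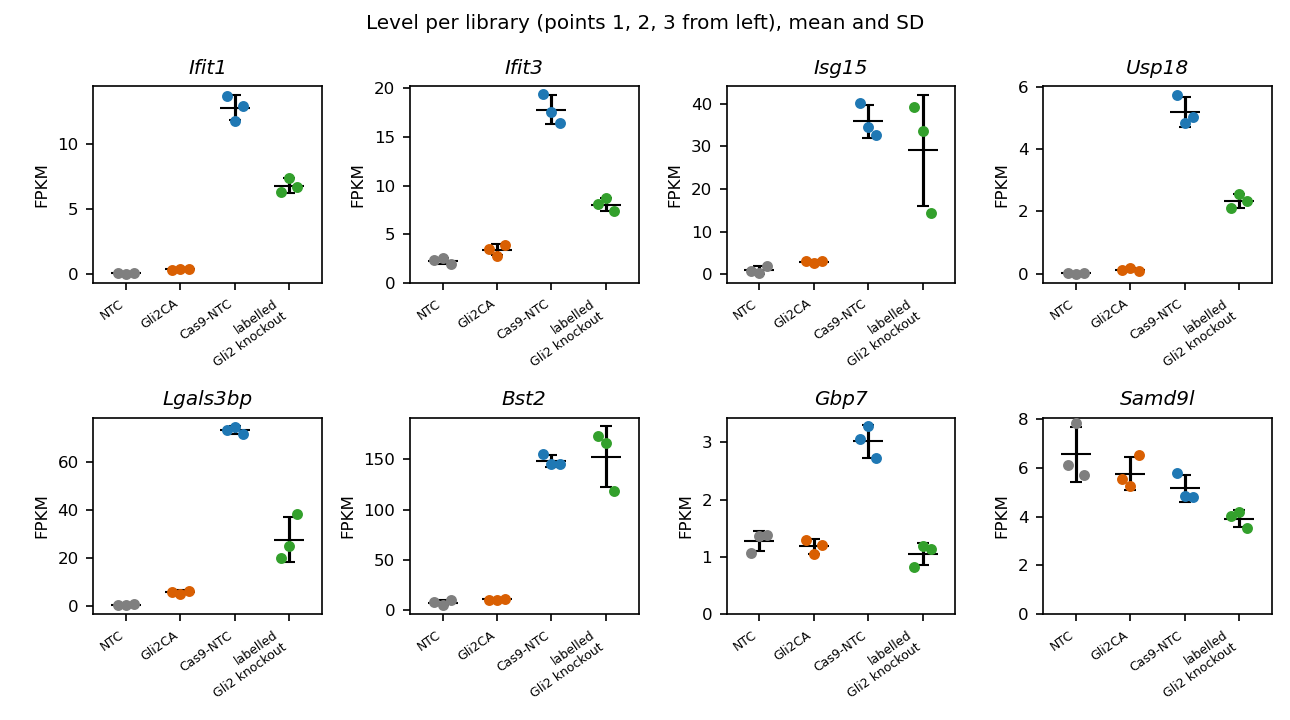
FPKM of 8 effectors in each library (points, libraries 1, 2 and 3 from left to right), with the group mean and SD as the black bar, on separate linear scales. Ifit1, Ifit3, Usp18, Lgals3bp, Gbp7 and Samd9l are lower in every labelled-knockout library than in every Cas9-NTC library, while Isg15 and Bst2 are low in library 3 of that group. Samd9l has its highest mean in NTC and was called in none of the comparisons.

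Of the small IFI proteins and the apoptosis factor Xaf1, all 5 were tested and all 5 were higher in Cas9-NTC than in NTC, 1 rose in Gli2CA and 1 fell in the labelled-knockout libraries. Ifi27 (ENSMUSG00000064215, chromosome 12, 103434211 to 103440239, plus strand), a small membrane protein, was at 29.3, 32.1 and 35.2 FPKM in NTC and 47.7, 55.2 and 54.4 in Gli2CA, 1.63-fold higher and without overlap (log2 change 0.69, SE 0.087, limma adjusted p = 0.00255). Ifi27 reached 173, 165 and 161 in Cas9-NTC and 172, 161 and 94.96 in the labelled-knockout libraries (log2 change -0.26, limma adjusted p = 0.442). As for Isg15, libraries 1 and 2 were at the level of the controls and library 3 was low, and without library 3 the log2 change was 0.00. Its paralog Ifi27l2a was at 1.14, 1.78 and 3.36 in NTC, 2.84, 1.79 and 2.29 in Gli2CA, 19.6, 16.01 and 18.8 in Cas9-NTC and 15.3, 15.2 and 5.61 in the labelled-knockout libraries. Its 3 NTC libraries were widely spread, and it was called between the control lines (log2 change 2.69, SE 0.24, limma adjusted p = 4.66e-05) but in neither manipulation. Ifi44 had 1 read over the NTC group, was at 2.27, 2.18 and 1.73 in Cas9-NTC and fell to 1.004, 1.14 and 0.958 in the labelled-knockout libraries (log2 change -0.59, SE 0.094, limma adjusted p = 0.0255). Xaf1 was at 3.51, 2.70 and 2.74 in Cas9-NTC and 1.81, 1.72 and 1.13 in the labelled-knockout libraries without overlap (log2 change -0.65, limma adjusted p = 0.0602), and Ifi35, with 8.99, 8.29 and 8.56 and 10.8, 9.17 and 6.46, overlapped (log2 change 0.00, limma adjusted p = 0.993). Part of the Ifi35 exons, 16.8%, overlaps another annotated gene, and whether the counting used strand is not given in the sources used here.

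All 5 of the remaining effectors were tested, 2 rose in Gli2CA and 0 fell, and 3 fell in the labelled-knockout libraries and 0 rose. Lgals3bp (ENSMUSG00000033880, chromosome 11, 118392751 to 118402092, minus strand), a secreted glycoprotein that binds galectin-3, was at 0.492, 0.372 and 0.656 FPKM in NTC and rose 11.5-fold to 5.98, 5.05 and 6.38 in Gli2CA (log2 change 2.17, SE 0.11, limma adjusted p = 8.9e-05), a call that held in all 16 alternative settings. It was at 73.1, 74.6 and 71.5 in Cas9-NTC, 144-fold above NTC (log2 change 5.62, SE 0.078, limma adjusted p = 4.84e-09). In the labelled-knockout libraries it was at 19.9, 24.8 and 38.2, 2.65-fold lower, with library 3 the least lowered (log2 change -1.42, SE 0.23, limma adjusted p = 0.0261). That call ended in 8 of 16 alternative settings (limma adjusted p 1.29e-06 to 0.125 over them). Sp100, a protein of nuclear bodies, rose in Gli2CA from 0.151, 0.234 and 0.107 to 0.514, 0.541 and 0.604 (log2 change 0.42, SE 0.062, limma adjusted p = 0.00475), and quantile normalisation ended the call (limma adjusted p = 0.119, range from 0.000547). It was at 6.94 ± 0.223 in Cas9-NTC and 6.43 ± 0.494 in the labelled-knockout libraries (mean ± SD, n = 3, limma adjusted p = 0.49).

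Rtp4 (ENSMUSG00000033355, chromosome 16, 23520291 to 23614222, plus strand), known as a chaperone of membrane receptors and as a virus restriction factor, was at 0.0411, 0.0828 and 0 FPKM in NTC and 0.294, 0.0778 and 0.150 in Gli2CA, which overlap. It was at 13.6, 11.3 and 11.5 in Cas9-NTC (log2 change 3.65, SE 0.086, limma adjusted p = 4.34e-08 against NTC) and fell 2.13-fold to 6.73, 6.399 and 3.99 in the labelled-knockout libraries (log2 change -0.99, SE 0.19, limma adjusted p = 0.0427). The latter call ended in 8 of 16 alternative settings (limma adjusted p 1.33e-05 to 0.177 over them), and 13.9% of the Rtp4 exons overlaps another annotated gene. Phf11d, listed at 0 in the 3 NTC libraries, was at 0.139, 0.0983 and 0.0708 in Gli2CA and 4.60, 4.06 and 4.47 in Cas9-NTC, at least 367-fold above NTC by the limit of 3 reads over the group. It fell 2.90-fold to 2.18, 1.25 and 1.11 in the labelled-knockout libraries (log2 change -1.12, SE 0.17, limma adjusted p = 0.0227). Samd9l, a restrictor of growth and of protein synthesis, was the exception in having its highest mean in NTC. It was at 6.14, 7.86 and 5.72 in NTC, 5.54, 5.26 and 6.53 in Gli2CA, 5.80, 4.87 and 4.82 in Cas9-NTC and 4.03, 4.21 and 3.52 in the labelled-knockout libraries, and was called in none of the comparisons (limma adjusted p = 0.415, 0.146 and 0.0642).

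Of the other genes of the interferon pathway, the ligands were not detected in any group. The 10 interferon genes examined, Ifnb1, Ifne, Ifnk, Ifng, Ifnl2, Ifnl3 and 4 of the Ifna family, were at 0 reads in all 12 libraries, which allows up to 0.335 FPKM for the gene and library with the highest limit (3 reads). Of 11 tested receptor, kinase and STAT genes, 2 rose and 2 fell in Gli2CA, and 2 were higher and 5 lower in Cas9-NTC than in NTC. These 4 and 7 of 11 stand beside 24.6% and 63.2% of all tested genes called in these comparisons. In the labelled-knockout libraries limma called 0 of them, with 5 lower and 0 higher at an unadjusted p under 0.05, and voom called 2 lower. Of all genes, 3398 of 11860 had such a p there in either direction, and voom called 539 of 11856 lower. The receptor subunit Ifnar1 was at 23.0, 25.8 and 23.3 FPKM in NTC and rose to 36.8, 36.8 and 35.5 in Gli2CA (log2 change 0.58, SE 0.058, limma adjusted p = 0.00109). It was lower in the Cas9 line, at 10.1, 10.2 and 10.2 (log2 change -1.16, limma adjusted p = 2.45e-06 against NTC), so the receptor and the effectors lay in opposite order between the control lines. The kinase gene Jak2 fell in Gli2CA (log2 change -0.49, limma adjusted p = 0.0151) and was 2.77-fold lower in Cas9-NTC than in NTC (log2 change -1.31, SE 0.088, limma adjusted p = 9.82e-06). Irf9, the DNA-binding subunit of the STAT complex, was at 1.29 ± 0.143 in NTC and 6.49 ± 0.428 in Cas9-NTC (mean ± SD, n = 3, log2 change 1.71, limma adjusted p = 1.23e-06).

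Of 15 tested genes for sensors, adaptors and interferon regulatory factors, 4 rose and 1 fell in Gli2CA, 4 fell and 0 rose in the labelled-knockout libraries, and 10 were higher and 1 lower in Cas9-NTC than in NTC. Of all tested genes, 14.1% rose and 10.5% fell in the first comparison, 4.55% fell in the second, and 31.1% were higher and 32.2% lower in the third. Irf7, a transcription factor that amplifies the response, was at 0.116, 0.0779 and 0.0824 FPKM in NTC and rose to 0.481, 0.234 and 0.337 in Gli2CA (log2 change 0.30, SE 0.076, limma adjusted p = 0.0317). It was at 9.02, 9.43 and 7.45 in Cas9-NTC and fell 2.66-fold to 3.03, 3.36 and 3.36 in the labelled-knockout libraries (log2 change -1.18, SE 0.12, limma adjusted p = 0.00606). Tmem173, which encodes the DNA-sensing adaptor STING, had the largest difference of the list between the control lines on the log2(FPKM + 1) scale, at 2.62 ± 0.0604 in NTC and 49.7 ± 2.11 in Cas9-NTC (log2 change 3.81, SE 0.055, limma adjusted p = 5.89e-09). By the ratio of mean FPKM, Irf7 (93.7-fold) and Dhx58 (60.9-fold) differed more than Tmem173 (19.0-fold). The other 3 that fell in the labelled-knockout libraries were the RNA sensor genes Ddx58, Dhx58 and Tlr3. Dhx58 fell 2.07-fold (log2 change -0.96, SE 0.13, limma adjusted p = 0.0157) and Tlr3 1.74-fold (log2 change -0.48, limma adjusted p = 0.0283). Ddx58, which encodes RIG-I, went from 9.40, 9.87 and 8.81 to 2.24, 2.78 and 5.05 (log2 change -1.30, SE 0.24, limma adjusted p = 0.0369), with library 3 the highest of the group.

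**Figure D5:**
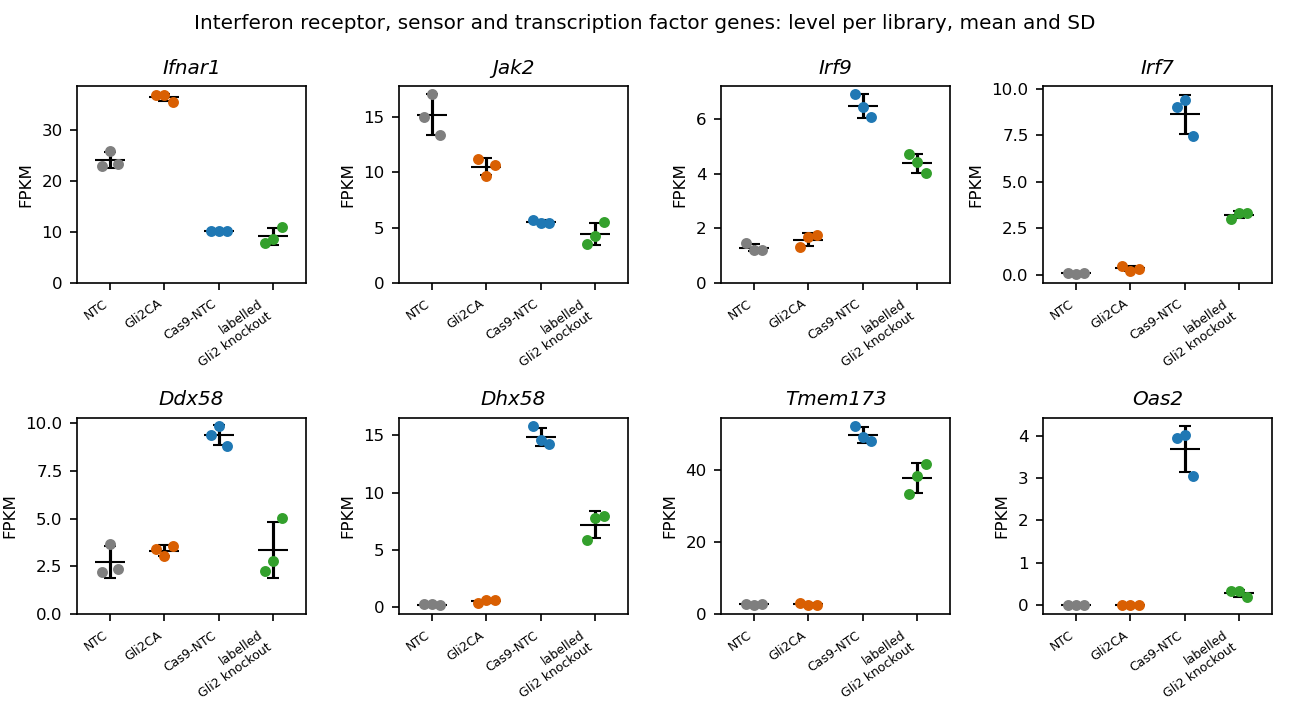
FPKM of 8 genes of the interferon receptor, its transcription factors, nucleic acid sensors and the 2-5A system in each library (points, libraries 1, 2 and 3 from left to right), with group mean and SD as the black bar, on separate linear scales. Ifnar1 and Jak2 are higher in NTC and Gli2CA than in the Cas9 groups, and the other 6 genes are highest in Cas9-NTC.

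The 2-5A system, in which oligoadenylate synthetases trigger the decay of RNA, was examined from a list. Of 8 tested synthetase genes, 2 rose and 0 fell in Gli2CA, 4 fell and 0 rose in the labelled-knockout libraries, and 8 were higher in Cas9-NTC than in NTC, beside 14.1% higher, 4.55% lower and 31.1% higher of all tested genes. Oas1a, with 0 reads in the 3 NTC libraries, was at 1.83, 1.55 and 1.94 FPKM in Gli2CA, at least 62.3-fold higher against a limit of 3 reads over the group (limma adjusted p = 8.09e-05). It was at 12.6, 11.5 and 10.00 in Cas9-NTC and 6.97, 8.35 and 4.92 in the labelled-knockout libraries (log2 change -0.69, limma adjusted p = 0.0937). Oas1 genes are close paralogs, and reads can be shared between them. Oasl1 rose 6.90-fold in Gli2CA (log2 change 0.99, SE 0.11, limma adjusted p = 0.00135) and fell 2.78-fold in the labelled-knockout libraries (log2 change -1.29, SE 0.12, limma adjusted p = 0.0053), where Oasl2 fell 2.74-fold (log2 change -1.07, SE 0.10, limma adjusted p = 0.00555). The other 2 that fell there were Oas3 and Oas2, the latter 12.9-fold from 3.95, 4.02 and 3.05 to 0.331, 0.335 and 0.191 (log2 change -1.86, SE 0.11, limma adjusted p = 0.00178). Both reached 1 FPKM only in the 3 Cas9-NTC libraries, so they were tested only because they were high there, which favours these calls.

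Of 5 tested feedback inhibitors, 0 rose and 1 fell in Gli2CA, 1 fell and 0 rose in the labelled-knockout libraries, and 2 were higher and 2 lower in Cas9-NTC than in NTC. The shares of all tested genes called in these comparisons were 24.6%, 6.42% and 63.2%. Ptpn2, a phosphatase that acts on JAK kinases and STATs, fell in Gli2CA (log2 change -0.56, SE 0.055, limma adjusted p = 0.00104). Socs1, an inhibitor of JAK kinases, lay in the opposite order to the effectors between the control lines, at 10.8, 8.82 and 13.5 FPKM in NTC and 5.99, 4.27 and 4.17 in Cas9-NTC (log2 change -1.05, SE 0.17, limma adjusted p = 0.00117). Socs3, of the same family, fell 2.21-fold in the labelled-knockout libraries (log2 change -1.07, SE 0.14, limma adjusted p = 0.0141).

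Within the labelled-knockout group, library 3 was the lowest of the 3 in 22 of the 43 members and the highest in 9, while library 1 was the lowest in 16 and the highest in 16. As shares of the members these are 51.2% and 20.9% for library 3 and 37.2% and 37.2% for library 1. Among all tested genes, library 3 was the lowest in 44.6% and the highest in 45.7%, and library 1 in 40.7% and 39.2%. The counts of library 1 were thus near those of all genes. The members low in library 3 included Isg15, Ifi27, Ifi27l2a, Bst2 and Rtp4, and those high in it included Lgals3bp, Eif2ak2, Adar, Samhd1 and Dtx3l. These low members had 463 to 2131 exon bases and these high members 2847 to 9150. Herc6 and Sp100, also lowest in library 3, had 9292 and 7556. FPKM summed to 407846, 370982 and 293496 in libraries 1, 2 and 3 of this group. The part of gene length and of these totals was not tested. In library 3 Gli2 RNA was the highest of the 12 libraries. The summed level of those fibroblast markers ranged from 89.9 to 241 FPKM in this group, against 227 to 239 in Cas9-NTC, almost all of it from the collagen gene Col3a1, and its part in these differences was not tested.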

How the data were processed

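Polyadenylated RNA of 12 libraries in 4 groups of 3 was measured. The authors deposited 1 table of FPKM per gene. Its aligner, genome build and strand setting are not stated in the labels. Whole reads were recovered from the low FPKM values with gene lengths of GENCODE M21 (GRCm38), in which 54495 of the 54532 genes were found, and every value column belonged to a labelled library. Of the values at or under 20 reads, 97.8% to 98.4% per library came out whole within 0.02 reads, and their intervals and limits cover counting error only. Recovered reads summed to 16585280 to 25279889 per library, and the total by which the FPKM had been divided was 0.889 to 1.07 times that sum.

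The 11860 genes that reached 1 FPKM in 3 or more libraries were tested on log2(FPKM + 1). The fit was made with limma (version 3.58.1, under R 4.3.3), with a trended prior and Benjamini-Hochberg adjustment over all of them, and called at an adjusted p under 0.05. Fold changes printed as folds are ratios of mean FPKM, while log2 changes carry the added 1 and understate low genes. Each comparison of 2 groups used its own 6 libraries, and the difference of the 2 changes used all 12. The filter looked at all 12 libraries, so a gene could pass through 1 group alone, as Rsad2, Oas2 and Oas3 did through Cas9-NTC. The fit was tested on simulated data.

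The 43 members, the pathway lists and the separate fits were chosen with earlier results of these data known. All 43 members were described, with every library's value for 20 chosen by rule and, beyond it, for Phf11d and Samd9l, and values in part of the groups, ranges or means for the others, and at most 3 called genes of each pathway list, those of largest change. Ddx58, Tlr3, Oas2 and Oas3 were named beyond that rule, after their values were seen. Some genes of the pathway lists are not reported here. Replicate numbers were not treated as pairs. Alternatives were other pseudocounts, no filter, all groups in 1 fit, other scalings, library weights, a replicate block, voom on recovered reads and leaving out each library. Rescaling to the sum of recovered reads was added after the data were seen. Promoter windows came from RefSeq (GRCm38.p6), and 9 members had no window there. They were Zbp1, Usp18, Parp9, Parp14, Mx1, Mx2, Ifi27, Ifi27l2a and Rtp4.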

Additional observations from a re-analysis of the deposited data

How the results depend on the processing

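No called member changed sign in its comparison under any alternative run. In Gli2CA against NTC, 10 members were called, and the count was 6 with all groups in 1 fit and 6 to 8 with 1 library left out, the lowest without NTC library 1. All genes called numbered 1685 with all groups in 1 fit, 4591 with library weights and 1728 to 2962 with 1 library left out, the lowest without Gli2CA library 3, against 2916. In the labelled-knockout comparison, 15 members were called. With no filter the count was 8 of 43, of which 7 were among the 15. It was 31 with library weights (29 lower, 2 higher) and 2 with the replicate block (Ifit3 and Gbp7), and 0 to 25 with 1 library left out. All genes called there numbered 3182 with all groups in 1 fit, 10015 with library weights, 176 with the replicate block and 120 to 7913 with 1 library left out, against 762. Members called between the control lines stayed at 32 to 33 and those of the difference of the 2 changes at 17 to 27 with 1 library left out, with 6579 to 7875 and 2373 to 7535 genes in all. Library weights gave 6525 genes for the difference, against 3356. The cause of these differences was not tested. Deviations of same-numbered libraries correlated at 0.10, 0.01 and -0.05 for Gli2CA and NTC and at 0.25, -0.15 and 0.20 in the Cas9 groups. With 3 libraries per group and no reference for these values, they cannot decide whether the replicate numbers pair the libraries. With the block, 10 members were called in Gli2CA, 32 between the control lines and 22 in the difference.

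Under another scaling the share of called genes that were higher fell in Gli2CA from 57.3% to 28.2% (common total), 37.3% (recovered reads) and 47.1% (quantiles), and in the difference from 58.9% to 46.4%, 45.6% and 49.6%. The median of all genes then lay at -0.13 in Gli2CA and -0.14 in the labelled-knockout comparison with a common total, and at 0.10 between the control lines with recovered reads. Only members that were not called changed sign. In Gli2CA, the log2 change of Ifitm3 went to -0.0955 (common total), -0.0516 (quantiles) and -0.0297 (recovered reads), that of Gbp2 to -0.0119 (common total) and that of Igtp to -0.0545 (quantiles). With library weights Trim30a went to 0.0004, Gbp7 to 0.019, Irgm1 to 0.0346 and Samd9l to 0.007. With 1 library left out, Irgm1 ranged from -0.0905 to 0.0648 and Ifi27l2a from -0.0859 to 0.429. In the labelled-knockout comparison, Ifi35 went to -0.162 (common total) and -0.0326 (recovered reads), Bst2 to -0.163 (common total), -0.115 (quantiles) and -0.0207 (recovered reads), Samhd1 to 0.018 (quantiles) and Sp100 to 0.0116 (library weights). With 1 library left out there, Ifi35 ranged from -0.142 to 0.189, Samhd1 from -0.2345 to 0.0977, Bst2 from -0.0823 to 0.191, Isg15 from -0.671 to 0.0219 and Ifi27 from -0.424 to 0.0034. In the difference, Parp9 went to -0.0184 with library weights.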
